A study of Mus musculus with 222 samples.

Results

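The cells described here are single primordial germ cells (PGCs, from which sperm and eggs derive) of XY mouse embryos at E12.5 (E for embryonic day), with and without a deletion of Eed. The table of E12.5 XY cells held 96 cells, 24 from each of 4 embryos. Kept cells had 50000 counts or more, spread over 1500 genes or more. They were 71 of the 96, out of 192 E12.5 single cells of both sexes in the tables. Of the 71, 35 were Control cells (13 from the embryo called Control a here and 22 from Control b) and 36 were ECKO cells (18 from ECKO a and 18 from ECKO b).

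Per the labels, dams homozygous for a floxed Eed allele were mated with males that carried Blimp1-Cre and were heterozygous for the floxed allele, on a C57BL/6;129S1/SvlmJ background with an Oct4-GFP reporter. Control cells are labelled wild type and ECKO cells Eed-/-. Blimp1-Cre is known to act in PGCs soon after their specification, and Blimp1 is also active in some somatic tissues, so the deletion is not restricted to germ cells. Single GFP-positive cells were sorted into wells and amplified by Smart-seq2, so each well is meant to hold 1 cell. The extract protocol given for these cells speaks of female gonads, also for the cells labelled XY. As a check, 63 of the 71 XY cells had a count of at least 1 of 4 Y-linked genes, against 1 of the 56 E12.5 XX cells kept by the same rule. Which exons the deletion removes is not given in the sources used here.

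EED belongs to the core of PRC2, the Polycomb complex that places methyl groups on lysine 27 of histone H3 and keeps many developmental genes silent. EED binds the methylated histone tail and stimulates the catalytic subunit EZH2 or EZH1, and no PRC2 activity is known without EED. At about this stage PGCs have settled in the gonad, have lost most of their DNA methylation and are about to take a sex-specific path: in an ovary they enter meiosis, and in a testis they turn to mitotic arrest and the spermatogonial programme.

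The 4 embryos were sequenced to 14162553, 22253525, 22630413 and 24163497 counts in all, in the order Control a, Control b, ECKO a and ECKO b, which is kept below. The kept cells had a median of 1048717 counts and 7213 genes, and the lowest kept cell had 99840 counts, well above the highest cell left out (42630 counts). Levels below are CPM, the counts of a gene scaled to library size, from counts summed over the cells of an embryo, and shares are the cells with at least 10 CPM of a gene, where every cell counts equally. A cell supplied at most 18.3% of the counts of its embryo, in ECKO b. For single genes the share was often higher: 123 of 458 values of named genes at 5 CPM or more moved by over 1.5 times without the cell that held most of the gene's counts. Of 119 named genes whose XY embryos did not overlap between genotypes, 26 overlapped once such a cell was left out of 1 embryo, an alternative added after the data were seen. Cells were compared by the correlation of their levels over 5185 genes, and 2 pairs of kept cells were nearly identical. One pair lay within Control a (r = 0.992) and the other joined a cell of ECKO a to a cell of ECKO b (r = 0.987), while no other of the 8001 pairs of kept E12.5 cells exceeded 0.697. Whether such a pair is 1 cell entered under 2 codes cannot be told apart from other sources of likeness. An alternative chosen after the data were seen, called here without the near-identical cells, kept the deeper cell of the Control a pair and neither cell of the other. It left 12, 22, 17 and 17 cells, and its values are given beside each result that turns on these cells. With 2 embryos in each group, an exact two-sided permutation test cannot give a p below 0.333, so tests come from edgeR's quasi-likelihood fit over all genes and all 8 E12.5 embryos of both sexes, with Benjamini-Hochberg adjustment.

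Eed itself was lower in ECKO cells but was not gone from them. Eed was at 40.7 and 52.6 CPM in the Control embryos and at 21.6 and 7.1 CPM in the ECKO embryos. The groups did not overlap, and the mean was 3.24-fold lower in ECKO (log2 fold change -1.70, SE 0.68, adjusted p 0.738). By cells, 10 of 13 and 20 of 22 Control cells carried at least 10 CPM of Eed, against 13 of 18 and 6 of 18 ECKO cells. Any Eed count at all was seen in every Control cell, in 17 of 18 cells of ECKO a and in 10 of 18 cells of ECKO b. The counts are per gene, so reads from exons that a deletion would leave in place cannot be told apart from intact transcripts. The partners of EED showed no common direction: Ezh2, a catalytic subunit, was at 33.6 and 80.4 CPM in Control and 68.2 and 40.4 CPM in ECKO, and Suz12, a core subunit, at 14.8 and 22.9 against 14.5 and 32.1 CPM. Of the 10 PRC2 genes with a mean of at least 5 CPM, Eed and Jarid2 lay lower in both ECKO embryos and none lay higher. Over all 9394 genes at that level, 19.5% lay lower and 17.9% higher, so this count was near the share of all genes.

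The sorted cells had the markers of germ cells in both genotypes. Dppa3, a PGC marker also called Stella, was at 664, 955, 755 and 455 CPM and was present in every kept cell. Utf1, a chromatin factor of pluripotent and germ cells, was also present in every cell, at 4918 and 3660 CPM in Control against 2234 and 2358 CPM in ECKO. Its groups did not overlap, with a mean 1.87-fold lower in ECKO (log2 fold change -0.90, SE 0.52, adjusted p 0.778). Ddx4, an RNA helicase of the germ line, was at 93.8, 21.5, 44.2 and 47 CPM, and Dazl, an RNA-binding protein that licenses germ cells for sexual differentiation, at 193, 147, 325 and 139 CPM. Both levels overlapped between the groups. The share of cells with Dazl did not overlap and was lower in ECKO. Without the near-identical cells, 12 of 12 and 20 of 22 Control cells carried it, against 14 of 17 and 10 of 17 ECKO cells. At least 3 of these 4 markers were present in 34 of 35 Control and 30 of 36 ECKO cells. By embryo, these were 13 of 13 and 21 of 22 Control cells, and 16 of 18 and 14 of 18 ECKO cells. All 4 were present in 26 Control and 21 ECKO cells, and no cell had fewer than 2.

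Several defining markers of other gonadal cells had no count or were near 0, while other genes on their lists were present in both genotypes. Keratins on these lists are described with the epithelial genes below. Summed over 21 supporting cell genes, the level was 170 and 59.3 CPM in the Control embryos and 243 and 238 CPM in the ECKO embryos. Krt8 and Krt18, which stand on that list, made up most of the sum in the ECKO embryos. Dhh, Nr5a1 and Foxl2 had no count in any XY embryo, Sox9, the testis-determining factor of Sertoli cells, was seen in ECKO b alone at 0.147 CPM, and Amh, another Sertoli cell gene, in Control a alone at 1.62 CPM. Aard, a gene of Sertoli cells, was at 23.7 and 30.6 CPM in Control and 10.6 and 1.88 CPM in ECKO. Fst, an ovarian supporting cell gene, was at 0 and 0 CPM in Control and 11.4 and 1.21 CPM in ECKO, with all counts of ECKO b in 1 cell. The part of other cells in the results below was not tested beyond these values. Summed interstitial genes were at 27.8, 68.5, 37.1 and 83.8 CPM, mostly from Vim (27.4, 67.4, 29.2 and 74 CPM), and Col1a1, Col3a1 and Tcf21 had no count. Endothelial genes summed to 225, 168, 91.8 and 191 CPM, and Kdr, Tie1 and Emcn had no count. Of that list, Cldn5 was at 73.8, 7.72, 11.6 and 84 CPM, Egfl7 at 20.3, 48.7, 42.7 and 67.8 CPM and Plvap at 20.7, 44.9, 15.3 and 7.32 CPM. Pecam1, an endothelial gene that PGCs also express, was at 110 and 54.1 CPM in Control and 11 and 20.6 CPM in ECKO. Ptprc, Csf1r and Hba-a1, of the blood list, had no count, and the list summed to between 0.55 and 10.7 CPM.

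Between genotypes, 1 of 13956 genes passed the test (0.00717% of those tested), the epithelial tight junction gene Cldn6. An unadjusted p under 0.05 was reached by 881 genes. DESeq2 called 395 genes on the same sums, 319 higher and 76 lower in ECKO, of which 222 had 3 or fewer counts in 1 of the groups. Leaving out any 1 of the 8 embryos gave between 3 and 53 edgeR calls, and the 4 XY embryos alone gave 0. Over the 9394 genes with a mean of at least 5 CPM, both ECKO embryos lay above both Control embryos for 1686 genes (17.9%). They lay below both Control embryos for 1835 genes (19.5%). These percentages are the background for every count below of genes without overlap on sums of all kept cells. A gene low in 1 group can reach this mean through the other group alone. Its side is then not independent of the limit.

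Embryos of unlike genotype were not further apart across all genes than embryos of the same genotype in every pair. The median absolute log2 ratio (after adding 1 CPM) was 0.66 between the Control embryos and 0.66 between the ECKO embryos. It was 0.88, 0.56, 0.69 and 0.63 in the 4 pairs of an ECKO with a Control embryo. The share of cells gave no single order either. Its median absolute difference over genes was 8.39 percentage points between the Control embryos and 11.1 between the ECKO embryos, and 9.09 to 11.1 in the 4 mixed pairs. For 70 genes the share differed by at least 50 percentage points between the Control embryos and for 25 between the ECKO embryos, against 94 to 285 genes in the 4 mixed pairs.

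Cldn6, a claudin of embryonic epithelia, was seen in no Control germ cell and in 19 of 36 ECKO cells. No count of Cldn6 was seen in either Control embryo, and it was at 45.1 and 58.2 CPM in the ECKO embryos. Of the ECKO cells, 11 of 18 (61.1%, exact 95% interval 35.7 to 82.7) and 8 of 18 (44.4%, 21.5 to 69.2) carried it at 10 CPM or more. It was present in 0 of 13 and 0 of 22 Control cells, which allows shares of up to 23.1% and 13.6%. The group mean was at least 592-fold higher in ECKO against a floor of 3 counts over the Control group, and Cldn6 rose with an adjusted p of 0.0275. With only the 4 XY embryos in the fit its adjusted p was 0.144, and with every cell thinned to 50000 counts it was 0.119. Without the near-identical cells it was at 31.7 and 50.5 CPM in ECKO, in 10 of 17 and 7 of 17 cells (adjusted p 0.0419). Over all alternatives the adjusted p ran from 5.04e-18 to 0.144.

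Krt8, a keratin of simple epithelia, followed the same pattern with 3 counts in the Control group. It was at 0.221 and 0 CPM in Control and 53.3 and 67.5 CPM in ECKO, and present in 0 of 35 Control cells and in 10 of 18 cells of each ECKO embryo (adjusted p 0.143). Krt18, its dimer partner, was at 110 and 17.4 CPM in Control and at 159 and 147 CPM in ECKO, so it was already transcribed in Control germ cells. It was present in 5 of 13 and 8 of 22 Control cells, against 16 of 18 and 14 of 18 ECKO cells. Krt19 had no count in Control and was at 96.7 and 8.42 CPM in ECKO, in 5 and 1 cells. A single cell held 91.5% of its counts in ECKO a and 99.6% in ECKO b, and the levels without these cells were 9.37 and 0.0406 CPM. Krt8 and Cldn6 were found together in 12 of the 36 ECKO cells and at least 1 of them in 27. Without the near-identical cells, both were found in 7 of 17 and 5 of 17 cells and at least 1 in 13 and 12. Of the 20 cells with Krt8, 17 carried at least 3 of the 4 germ cell markers. The promoters of Cldn6 and Krt8 are shown because Cldn6 was the gene called and Krt8 had a like pattern of cells, and because CG dinucleotides (in capitals) mark the kind of promoter where PRC2 is known to act. Each runs from 250 bases before to 50 after the gene start, 5′ to 3′ on the gene's strand, from RefSeq on build GRCm38.p6, where 7 of 9 genes looked up had an entry. Cldn6 is at chr17:23679115-23679414 on the plus strand and Krt8 at chr15:102004293-102004592 on the minus strand.

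Cldn6: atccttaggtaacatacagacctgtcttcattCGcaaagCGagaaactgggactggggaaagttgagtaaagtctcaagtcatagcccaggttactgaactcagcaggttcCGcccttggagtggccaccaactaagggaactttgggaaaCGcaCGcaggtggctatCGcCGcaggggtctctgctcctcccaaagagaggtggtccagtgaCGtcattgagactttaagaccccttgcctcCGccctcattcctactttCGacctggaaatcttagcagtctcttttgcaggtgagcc

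Krt8: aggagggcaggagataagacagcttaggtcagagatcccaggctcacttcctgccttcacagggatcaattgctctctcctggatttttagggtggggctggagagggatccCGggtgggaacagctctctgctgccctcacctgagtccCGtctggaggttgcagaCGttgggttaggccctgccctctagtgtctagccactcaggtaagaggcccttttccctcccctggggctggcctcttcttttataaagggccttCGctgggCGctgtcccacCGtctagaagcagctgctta

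The Cldn6 promoter held 10 CG and that of Krt8 held 6, counted on 1 strand since CG reads the same on both. Of the 32851 mouse promoters of the same length, 43.5% held as many CG as Cldn6 or more, and 56.4% as many as Krt8 or more, with a median of 7. By this count neither promoter was unusually rich in CG, and 94.6% of all promoters hold at least 1.

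**Figure D1:**
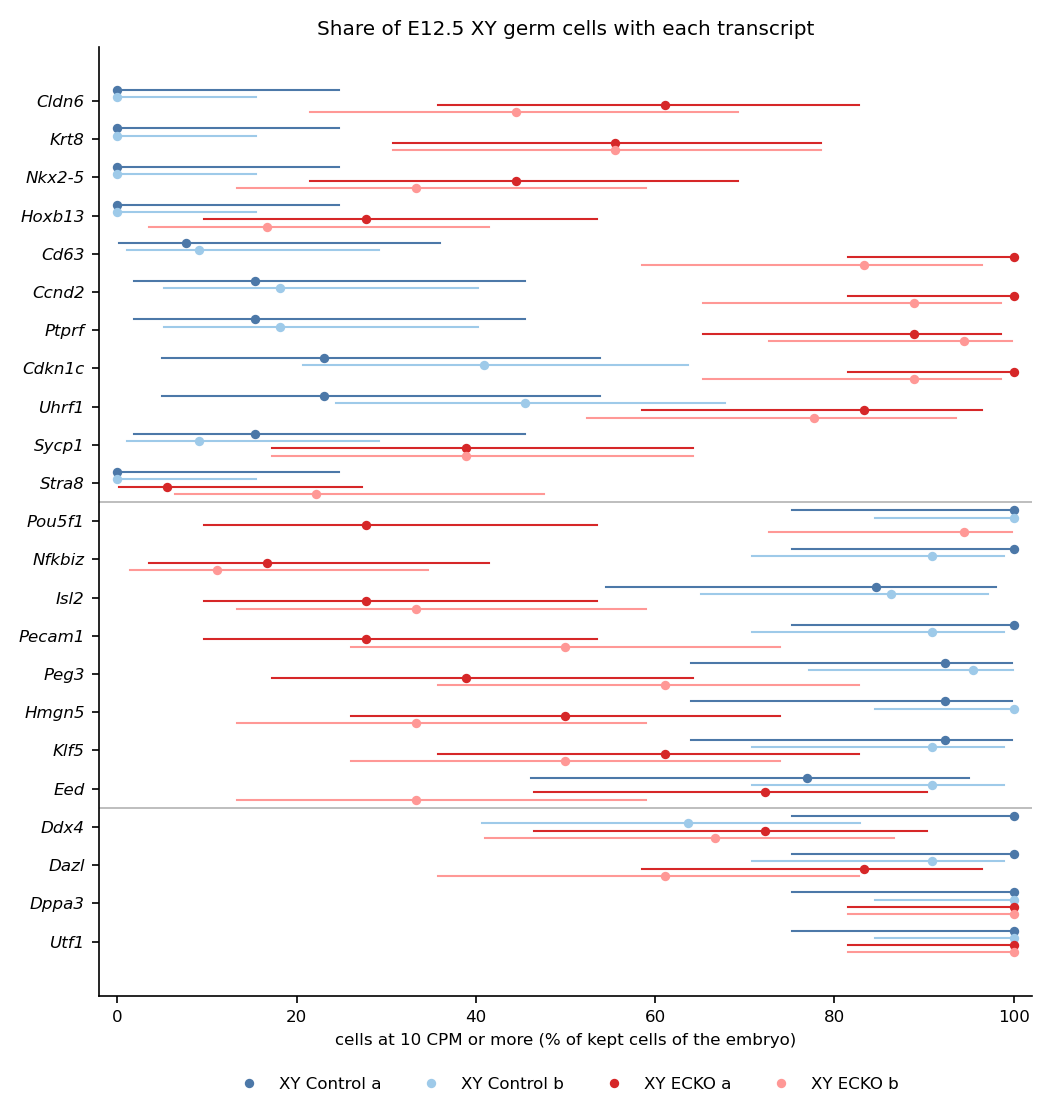
Share of cells at 10 CPM or more (x axis, percent of the kept cells of the embryo) for selected genes (y axis), 1 point per XY embryo with its exact 95% interval, Control in blue and ECKO in red. Cd63 and Ccnd2 sit at 83.3% or more in both ECKO embryos and at 18.2% or less in both Control embryos. Nfkbiz and Isl2 show the opposite order. Of the germ cell markers at the foot, Ddx4 overlaps, Dppa3 and Utf1 are in every cell, and Dazl lies lower in both ECKO embryos.

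The 12 genes with the widest gap between the shares of the nearest Control and ECKO embryos, higher in ECKO, included a cyclin, adhesion and membrane proteins and a small heat shock protein. They were chosen by their shares, so their values are a description. Cd63, a tetraspanin of endosomes and secreted vesicles, was in 1 of 13 and 2 of 22 Control cells and in 18 of 18 and 15 of 18 ECKO cells. Its level was 0.738 and 1.73 CPM in Control and 146 and 86.4 CPM in ECKO, a mean 94.2-fold higher. Ccnd2, the D-type cyclin that drives entry into S phase in many stem cells, was in 2 and 4 Control cells and in 18 and 16 ECKO cells. It was at 14.6 and 5.5 CPM against 178 and 134 CPM, 15.5-fold higher. Hspb1, a small heat shock protein, was at 10.1 and 35.9 CPM against 333 and 205 CPM, 11.7-fold higher. Fabp5, a carrier of fatty acids and retinoic acid, was at 1.18 and 22.6 CPM against 221 and 106 CPM.

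Others of these 12 encode proteins of the cell surface. Ptprf, a receptor tyrosine phosphatase of cell contacts, was at 18.1 and 11.3 CPM in Control and 75.7 and 218 CPM in ECKO. Cadm1, an adhesion molecule, was in 2 and 1 Control cells and in 13 and 13 ECKO cells. Clstn1, a cadherin-like transport protein, was in 2 and 3 Control cells against 15 and 13 ECKO cells. Wfdc2, a secreted protease inhibitor of epithelia, was at 32 and 12.7 CPM in Control and 157 and 89.6 CPM in ECKO. Beside Ccnd2, the other D-type cyclins parted: Ccnd1 was at 18.9 CPM, all from 1 cell, and 0.297 CPM against 55 and 38.8 CPM, while Ccnd3 lay lower in ECKO, at 667 and 394 CPM against 103 and 200 CPM (3.5-fold). Ccnd3 was still present in 34 of the 36 ECKO cells. 

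The 12 genes with the widest gap in the lower direction included transcriptional regulators and phosphatases. Nfkbiz, an atypical inhibitor of NF-kappa-B in the nucleus, was in 13 of 13 and 20 of 22 Control cells and in 3 of 18 and 2 of 18 ECKO cells. It was at 130 and 48.4 CPM in Control and 6.06 and 5 CPM in ECKO, 16.1-fold lower. Hmgn5, a nucleosome-binding protein encoded on the X chromosome, was at 65 and 250 CPM against 19.4 and 12.4 CPM, 9.91-fold lower. Isl2, a LIM homeobox factor known from motor neurons, was at 156 and 136 CPM in Control, in 11 of 13 and 19 of 22 cells, and at 26.5 and 45.7 CPM in ECKO, in 5 of 18 and 6 of 18 cells. Its mean was 4.05-fold lower (log2 fold change -2.02, SE 0.47, adjusted p 0.503). Dusp4, a phosphatase that ends ERK signalling, was at 174 and 84.3 CPM against 18.3 and 39.9 CPM, and Ptpn9, another phosphatase, at 19.7 and 28.9 against 4.46 and 3.49 CPM.

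**Figure D2:**
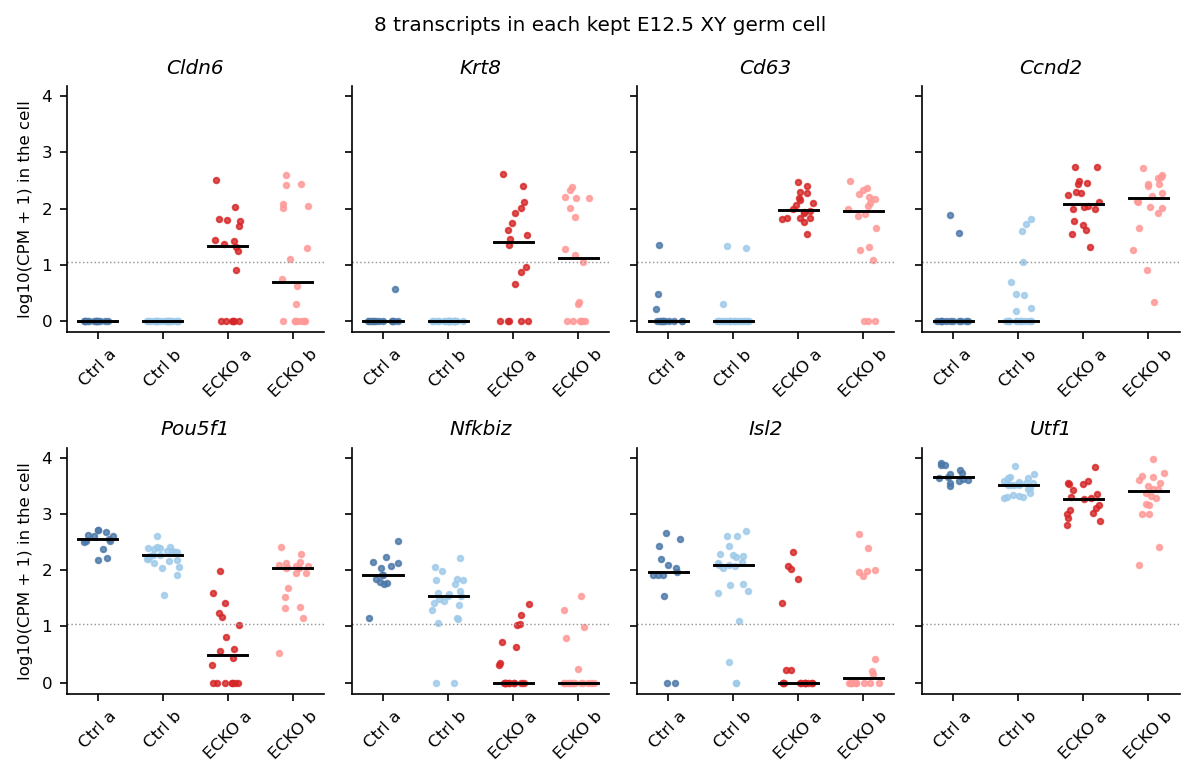
Level of 8 genes in each kept XY cell (y axis, log10 of CPM plus 1), 1 point per cell, grouped by embryo on the x axis, with black bars at the medians and a dotted line at 10 CPM. Krt8 and Cldn6 reach the line in none of the 35 Control cells and in 20 and 19 of the 36 ECKO cells, and Pou5f1 differs between ECKO a and ECKO b.

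Pluripotency and early PGC genes lay lower in ECKO more often than higher, and the ECKO embryos differed from each other in Pou5f1. Of 32 genes on this list, 30 had a mean of at least 5 CPM; 10 lay lower in both ECKO embryos and 3 higher (10 and 5 without the near-identical cells), none called. The median log2 fold change over the 32 was -0.34, against 0.10 over all genes tested. Pou5f1 (Oct4) was at 409 and 210 CPM in Control and in every Control cell. In ECKO a it was at 10.8 CPM and in 5 of 18 cells (6.69 CPM and 4 of 17 without the near-identical cells), and in ECKO b at 97.4 CPM and in 17 of 18 cells (log2 fold change -2.51, SE 0.87, adjusted p 0.719). The GFP reporter used for the sort carries regulatory sequence of this gene, and whether the sort set its level was not tested.

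Nanog followed Pou5f1 in ECKO a only. Nanog, a core pluripotency factor, was at 68.9 and 38.1 CPM in Control and at 13.9 CPM in ECKO a and 68.1 CPM in ECKO b, so the groups overlapped. Sox2, their partner, was at 187 and 212 CPM against 149 and 184 CPM and was present in 32 of 36 ECKO cells. The ECKO a cell of the near-identical pair held 49% of the Sox2 counts of its embryo, and without the near-identical cells Sox2 was at 167 and 212 CPM against 79.2 and 133.9 CPM, and Nanog in ECKO a at 8.57 CPM. All 3 of Pou5f1, Nanog and Sox2 were found in 13 of 13 and 16 of 22 Control cells, in 1 of 18 cells of ECKO a and in 15 of 18 cells of ECKO b. The 1 cell of ECKO a was the near-identical one, and without these cells the counts in ECKO were 0 of 17 and 14 of 17. Every ECKO cell had at least 1 of them. Klf5, a factor of naive pluripotency, was at 130 and 108 CPM against 52.3 and 29.7 CPM. Its relative Klf4 lay the other way, at 0.0738 and 1.24 CPM against 9.37 and 65 CPM, but 1 cell held 94.9% of its counts in ECKO b, where it was at 3.65 CPM without that cell. Tdh, a threonine dehydrogenase of mouse pluripotent cells, was at 448 and 480 CPM against 214 and 272 CPM.

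On the list of synaptonemal complex and meiotic cohesin genes, which also holds Tex15, every gene without overlap lay on the higher side. Of 16 genes for the synaptonemal complex and meiotic cohesin, 14 were tested and 12 had a mean of at least 5 CPM; 8 lay higher in both ECKO embryos and 0 lower, with a median log2 fold change of 1.66 over the 14. None was called by edgeR, and 3 had an unadjusted p under 0.05. Of the 8, Hormad2, Sycp1, Sycp3, Tex11 and Tex12 were below 5 CPM in both Control embryos without the near-identical cells. These genes reached the mean of 5 CPM through the ECKO embryos, so their side was not independent of that limit. Rec8, Smc1b and Tex15 were at 5 CPM or more in both Control embryos. The summed level of the 16 genes was 549 and 526 CPM in Control and 877 and 554 CPM in ECKO. ECKO b was thus close to Control a. By cells, a median of 5 and 4 of these genes reached 10 CPM in Control, and 6 and 6 in ECKO. With every cell thinned to the same depth, the mean was 5.15 and 3.82 genes a cell in Control and 6.17 and 5.11 in ECKO. By that mean ECKO b lay slightly below Control a. Sycp1, which forms the central region of the synaptonemal complex, was at 1.55 and 3.12 CPM in Control and 52.3 and 11.51 CPM in ECKO, in 2 and 2 Control cells against 7 and 7 ECKO cells. Its mean was 13.7-fold higher (log2 fold change 3.76, SE 1.22, adjusted p 0.679). Sycp3, of the lateral element, was at 1.7 and 2.62 CPM against 23 and 5.37 CPM. Rec8, the meiotic cohesin, was at 5.98 and 14 CPM against 37.1 and 35.3 CPM, and Tex15, a repair and silencing factor of the germ line, at 7.01 and 12.8 against 38.9 and 42.4 CPM. In ECKO a, 1 cell with a Dazl level of 873.5 CPM held 57.6% of the Sycp1, 56% of the Sycp3 and 64.1% of the Tex15 counts, and the levels without it were 25.3, 11.6 and 16 CPM. In ECKO b, a single cell held 61.9% of the Tex15 counts and 50% of those of Sycp3. Without the deepest cell of each embryo, an alternative chosen after the data were seen, 6 members lay higher and 0 lower. Of all 9394 genes, 1412 then lay higher and 1978 lower.

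Stra8, the retinoic acid target that starts meiosis, was seen in a few ECKO cells. It had no count in either Control embryo and was at 4.01 and 25.9 CPM in ECKO, at least 187-fold higher by the floor of 3 counts (adjusted p 0.503). It was present in 1 of 18 cells of ECKO a and 4 of 18 cells of ECKO b, against 0 of 35 Control cells. In ECKO b, 1 cell held 65.3% of the Stra8 counts, and the level without it was 9.23 CPM. That cell had no Dazl count, with Ddx4 at 4.44, Dppa3 at 29.6 and Utf1 at 124.2 CPM, and no count of Sox2. In XX cells of the same age, Stra8 was at 286 and 146 CPM in the ECKO embryos, in 13 of 13 and 12 of 13 cells, and at 5.09 and 0.0368 CPM in Control. Among 7 recombination genes with a mean of at least 5 CPM, 2 lay higher and 2 lower. Crabp2, a retinoic acid carrier, was also higher in both ECKO embryos, at 7.01 and 2.18 CPM against 55.9 and 23.9 CPM, of which the same cell of ECKO b held 50.1% (12.3 CPM without it). Of 20 retinoic acid and BMP genes with a mean of at least 5 CPM, 6 lay higher and 1 lower.

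Genes of male germ cell differentiation lay on both sides. Of 23 such genes with a mean of at least 5 CPM, 6 lay higher and 4 lower, and the median log2 fold change over the 35 tested was 0.47. Nanos2, the RNA-binding factor that sets the male fate, was at 0.1 CPM or less in every embryo and at 10 CPM in no cell. Dnmt3l, the cofactor of de novo DNA methylation in prospermatogonia, had no count in Control and was at 4.31 and 1.25 CPM in ECKO. Tex101, a surface glycoprotein of later germ cells, was at 24.4 and 0.347 CPM in Control and 142 and 78.8 CPM in ECKO, in 4 and 0 Control cells against 14 and 10 ECKO cells. Nodal, a TGF-beta family ligand of early XY germ cells, was at 115 and 147 CPM against 94.4 and 90.3 CPM (84.1 CPM in Control a without the cell that held most, which gives an overlap), and Foxh1, a DNA-binding partner of Nodal signalling, at 377 and 311 against 99.3 and 132 CPM. The Nodal targets Lefty1 and Lefty2 overlapped between the groups. Of 32 genes for genome defence in the germ line or later germ cell stages, with a mean of at least 5 CPM, 8 lay higher and 3 lower.

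Hox genes, which set body position and are textbook PRC2 targets, were detected in more variety and in more cells in ECKO. Of 39 Hox genes, 3 and 4 had any count in the Control embryos against 20 and 19 in the ECKO embryos. Over all 24391 genes, 11778 and 13031 had a count in Control and 13622 and 13411 in ECKO, lowest in Control a, the embryo with the fewest cells and counts. At least 1 Hox gene reached 10 CPM in 6 of 13 and 7 of 22 Control cells and in 15 of 18 and 15 of 18 ECKO cells. Most stayed very low: 3 of the 39 had a mean of at least 5 CPM, of which 2 lay higher. Hoxb13, the most posterior member of its cluster, had no count in Control and was at 13.53 and 13.46 CPM in the ECKO embryos (at least 152-fold), in 5 and 3 cells. Hoxc9 was at 0 and 0.0495 CPM against 19.9 and 2.06 CPM, with 57.3% of the ECKO a counts in 1 cell. Of the 20 Hox genes tested, 18 entered a count of sides, with 17 on the higher and 1 on the lower side. Over all genes so counted, 7549 lay on the higher and 6161 on the lower side. With genes lacking a count in 1 group set to their bound, the median log2 fold change was 2.70, against 0.12 over all genes. Few Hox genes had any count in Control, so many passed the filter on low counts through ECKO embryos alone. Their side was thus not independent of that filter.

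Other developmental transcription factors were detected in more variety in ECKO but not in more cells or at a higher summed level. Of 85 such genes, 27 and 31 had any count in the Control embryos and 49 and 43 in the ECKO embryos, beside the counts over all genes just given. At least 1 of them reached 10 CPM in 13 of 13, 22 of 22, 17 of 18 and 18 of 18 cells, with medians of 5, 5, 5 and 6 genes a cell. Their summed level was 541 and 490 CPM in Control and 323 and 485 CPM in ECKO. Nkx2-5, the cardiac homeobox factor, was at 0.0738 and 0 CPM in Control and 16.8 and 36.7 CPM in ECKO, in 8 and 6 ECKO cells. Hand1, a factor of heart and trophoblast, had no count in Control and was at 4.86 and 3.09 CPM in ECKO (at least 43.2-fold), in 3 and 1 cells. Of the 15 with a mean of at least 5 CPM, 5 lay higher and 2, Isl2 and Tbx4, lower. The bounded median log2 fold change was 1.24.

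Imprinted genes, several of which are silenced by Polycomb on the inactive parental copy, were on the higher side in most cases without overlap. Of 57 on the list, 50 were tested and 34 had a mean of at least 5 CPM; 16 lay higher in both ECKO embryos and 2 lower, with a median log2 fold change of 0.84 over the 50. None was called, and 13 had an unadjusted p under 0.05. Of the 16, Dlk1, Grb10, Igf2, Meg3, Plagl1 and Zdbf2 were below 5 CPM in both Control embryos without the near-identical cells. These reached the mean of 5 CPM through the ECKO embryos, so their side was not independent of that limit. Cdkn1c, a cyclin-dependent kinase inhibitor expressed from the maternal copy, was at 12.8 and 51.3 CPM in Control and 134 and 355 CPM in ECKO, 7.62-fold higher, in 3 and 9 Control cells against 18 and 16 ECKO cells. Its neighbour Phlda2, a growth inhibitor of the placenta, was at 70.9 and 125 CPM against 401 and 248 CPM. Cd81, from the same imprinted region, was at 26.9 and 18.5 against 75.2 and 94.6 CPM. The paternally expressed Igf2, a growth factor, was at 0 and 0.297 CPM against 13.7 and 16.7 CPM, and Dlk1, a Notch ligand homologue, at 0.517 and 0 against 17.5 and 23.5 CPM (7.53 and 16.9 CPM without the near-identical cells). Grb10, an adaptor that limits growth signals, was at 38 CPM in ECKO a and 3.01 CPM in ECKO b, against 0 and 0.198 CPM. Peg3, a paternally expressed zinc finger gene, lay lower, at 127 and 101 CPM against 24.5 and 29.4 CPM (4.23-fold). PGCs of this age are known to erase imprints, so both parental copies may be read, and the counts do not separate them.

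Among genes for DNA methylation, Uhrf1, the cofactor of its maintenance, lay higher in both ECKO embryos. It was at 10.2 and 16.2 CPM in Control and 130 and 120 CPM in ECKO, 9.5-fold higher, in 3 of 13 and 10 of 22 Control cells against 15 of 18 and 14 of 18 ECKO cells. Uhrf1 is known to be kept low in PGCs while methylation is lost. Dnmt3b, a de novo methyltransferase, was at 3.91 and 16.7 CPM against 64.6 and 65.8 CPM. Dnmt1, the maintenance enzyme that UHRF1 recruits, lay slightly lower, at 370 and 463 against 344 and 278.1 CPM. Of 9 such genes with a mean of at least 5 CPM, 3 lay higher and 1 lower.

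On summed counts, genes of proliferation, p53 and glycolysis lay lower more often than higher. With every cell thinned to the same depth, proliferation genes were near even. Of 18 glycolysis genes, 4 then lay higher and 1 lower, beside 1858 and 1334 of 9394 genes over all. The thinned sums were scaled by plain totals, without the TMM factors used on sums. The part of depth alone in these shifts was not tested. Of 35 proliferation genes, 15 lay lower and 5 higher on summed counts, 5 lower and 4 higher when every cell was thinned to 50000 counts, and 13 lower and 2 higher without the deepest cell of each embryo. Ccne1, the cyclin of the G1 to S transition, was at 327 and 320 CPM in Control and 165 and 115 CPM in ECKO, while Top2a, a topoisomerase of dividing cells, was at 219 and 373 against 714 and 562 CPM. Of 18 glycolysis genes with a mean of at least 5 CPM, 6 lay lower and 1 higher on sums, against 1 lower and 4 higher after thinning and 3 lower and 2 higher without the deepest cells. Of 28 p53 and apoptosis genes, 8 lay lower and 4 higher, and 8 and 5 after thinning. Pmaip1 (Noxa), which promotes apoptosis, was at 5.61 and 1.68 CPM against 23.9 and 43.3 CPM, in 2 and 0 Control cells against 11 and 15 ECKO cells. Mcl1, which it antagonises, was at 179 and 152 against 94.7 and 75 CPM, and Cdkn1a (p21) overlapped, at 85 and 495 against 395 and 266 CPM. Over all genes, 1858 lay higher and 1334 lower after thinning, against 1686 and 1835 on sums. Without the deepest cell of each embryo, 1412 of all genes lay higher and 1978 lower.

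Genes that respond to tissue dissociation lay on both sides. Dusp1 was at 322 and 229 CPM in Control and 74.2 and 48.6 CPM in ECKO, and Ier2 at 466 and 476 against 191 and 255 CPM, while Hspb1, named above, was higher. Of 14 stress genes with a mean of at least 5 CPM, 2 lay higher and 4 lower. The part of sample handling in the values of these genes was not tested.

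**Figure D3:**
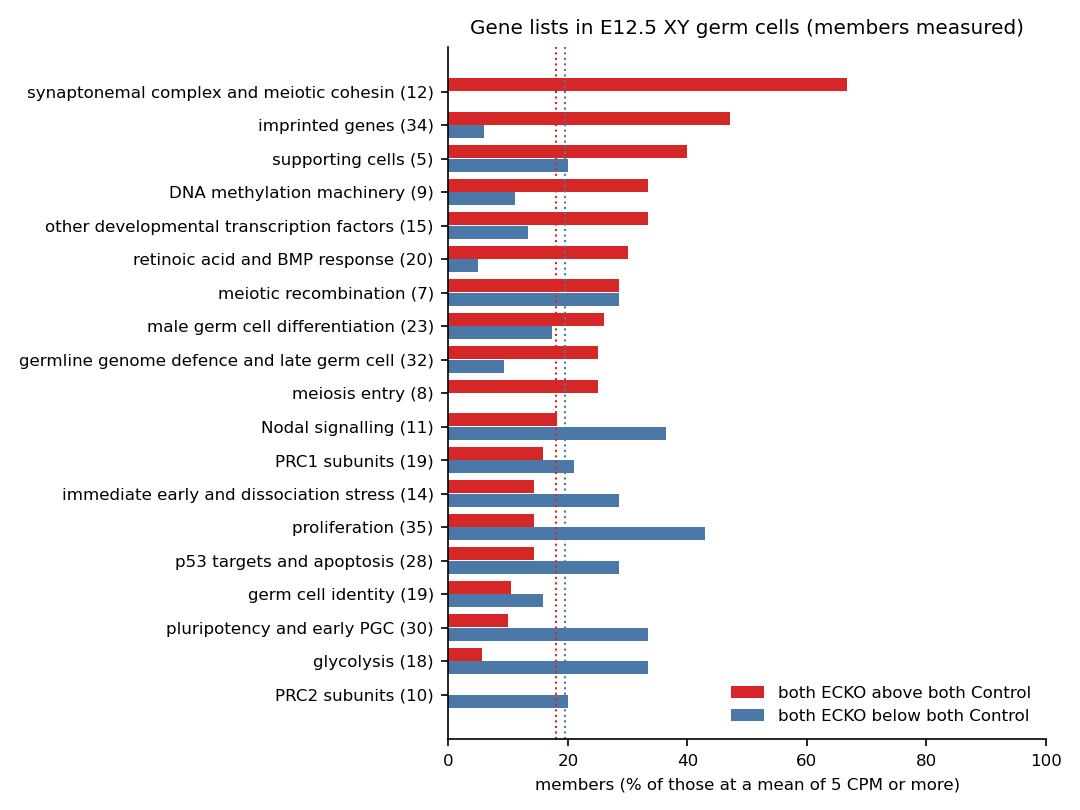
Percent of the members of each gene list with a mean of at least 5 CPM (x axis; their number in brackets on the y axis) for which both ECKO embryos lay above (red) or below (blue) both Control embryos. Dotted lines give the background over all genes, 17.9% above and 19.5% below; 8 of 12 synaptonemal complex and cohesin genes lay above and 0 below.

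Genes called in bulk XY germ cells of other embryos lay on the same side at E12.5 in most cases. Bulk libraries of E11.5 XY PGCs (4 Control, 4 ECKO) gave 189 genes higher (1.51% of 12497) and 77 lower (0.616%) in ECKO, and those of E13.5 XY (4 Control, 3 ECKO) gave 369 higher (2.99% of 12336) and 235 lower (1.9%). These libraries share no sample with the single cells, and in them fewer cells that express a gene and less RNA per cell cannot be told apart. Of the 184 genes higher at E11.5 and tested at E12.5, 159 (86.4%) were on the higher side at E12.5, with a median log2 fold change of 2.32. Both ECKO embryos lay above both Control embryos for 117 of them (63.6%). Over all 12047 genes tested in both, 52.6% were on the higher side, the median was 0.06 (log2) and 19.8% lay higher without overlap. Of the 77 genes lower at E11.5, 85.7% were on the lower side at E12.5, with a median of -0.74, and 53.2% lay lower without overlap against 17.6% of all genes.

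The genes called at E13.5 showed the same order with smaller shares. Of 317 genes higher at E13.5 and tested at E12.5, 256 (80.8%) were on the higher side, with a median of 1.52, and 50.5% lay higher without overlap against 19.6% of all genes. Of 232 genes lower at E13.5, 69.8% were on the lower side, with a median of -0.36. Without overlap, 33.2% of them lay lower, against 17.6% of all genes. Over all 11676 genes tested in both, 52.5% were on the higher and 47.0% on the lower side, with a median of 0.05. All 26 tested genes called higher at both stages were higher at E12.5, 23 of them without overlap. Among these, Psmb9, an immunoproteasome subunit, had no count in Control and was at 15.4 and 26.5 CPM in ECKO, in 6 and 8 cells. Serpine2, a secreted protease inhibitor, was at 12.9 and 4.06 CPM against 28.6 and 66.1 CPM. Plcd1, a phospholipase lower at both bulk stages, was at 335 and 326 CPM against 95.9 and 146 CPM. The bulk calls depended on single libraries, and leaving out 1 gave between 64 and 333 calls at E11.5 and between 94 and 2141 at E13.5, against 266 and 604.

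Some genes described above were called in these bulk libraries and others were not. Ccnd2 was at 16.5 to 70.2 CPM in E11.5 Control libraries and 80.4 to 145.6 CPM in ECKO, and at 2.07 to 15.2 CPM against 71 to 105.2 CPM at E13.5. It rose at both stages (adjusted p 0.0465 and 0.0107 in edgeR). Cdkn1c rose at both stages as well, by 2.80 and 2.68 on the log2 scale (adjusted p 0.0132 and 0.047). Stra8 was at 0.0679 to 0.978 CPM in E11.5 Control libraries and 6.67 to 15.9 CPM in ECKO, without overlap (adjusted p 0.0127). Uhrf1 rose at E11.5 (log2 fold change 1.38, adjusted p 0.0261) and Sycp1 at E13.5 (1.96, adjusted p 0.0285). Hmgn5 was at 251.1 to 333.9 CPM in E11.5 Control libraries against 93.5 to 190.1 CPM in ECKO, and fell at both stages (adjusted p 0.00871 and 0.0287). Isl2 fell at E11.5 (log2 fold change -1.46, adjusted p 0.0127), and Nfkbiz (-2.66, adjusted p 0.0219) and Peg3 (-2.15, adjusted p 0.0285) fell at E13.5. The epithelial genes did not pass in bulk. Krt8 had log2 fold changes of 3.76 and 3.74 (adjusted p 0.0535 and 0.135), and Cldn6, the only gene called in the E12.5 XY cells, 1.01 and -0.08 (adjusted p 0.442 and 0.983).

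**Figure D4:**
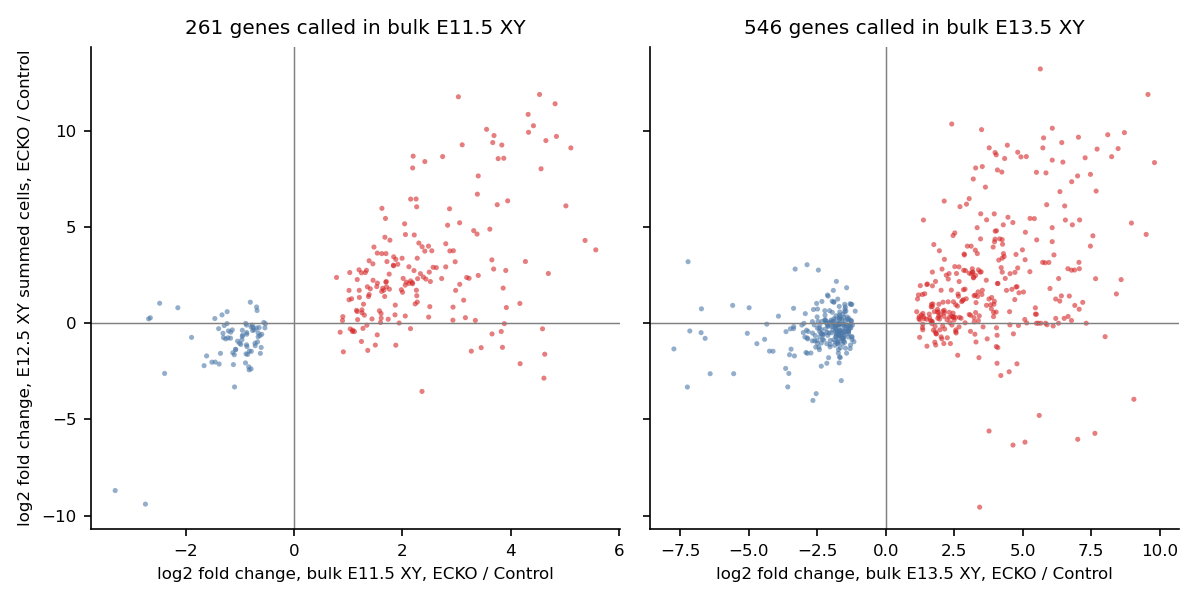
Log2 fold change in bulk XY germ cells (x axis) against that in E12.5 XY single cells summed per embryo (y axis), 1 point per gene called in bulk and tested at E12.5, with E11.5 on the left, E13.5 on the right, and genes higher in bulk in red and lower in blue. Most points have equal sign on both axes: 159 of 184 genes higher at E11.5 and 256 of 317 higher at E13.5 lie above 0.

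Counted cell by cell, nearly every ECKO cell carried more of the genes called higher at E11.5 than any Control cell. After thinning each cell to 50000 counts, Control a cells had between 18 and 42 of these genes (median 29) and Control b cells between 18 and 38 (median 27). Cells of ECKO a had between 43 and 75 (median 55.5) and those of ECKO b between 39 and 71 (median 57.5). Thus 35 of 36 ECKO cells lay above the highest Control cell, in ECKO b with 17 of 18, and 33 of 34 without the near-identical cells. Of these 35 cells, 26 still had a count of Eed. The number of all genes detected at this depth did not differ in that direction, with medians of 5283 and 5271 in Control and 4979.5 and 5178.5 in ECKO. Of the genes called lower at E11.5, Control cells had between 38 and 55 and ECKO cells between 26 and 51, and 26 of 36 ECKO cells lay below the lowest Control cell. Cells of an embryo are not replicates, so these counts describe the 4 embryos and carry no test.

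**Figure D5:**
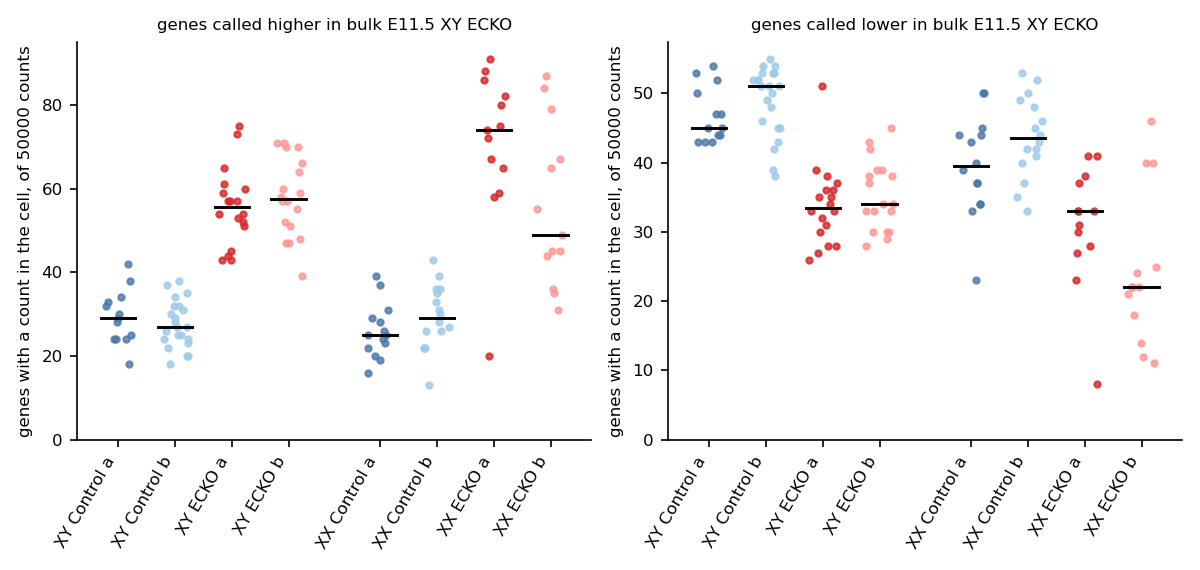
Number of genes called higher (left panel) or lower (right panel) in E11.5 XY bulk that had a count in each cell after thinning to 50000 counts (y axis), 1 point per cell, by embryo on the x axis, with medians as black bars and XX embryos to the right. For genes higher in bulk, XY ECKO cells sit at 39 to 75 and XY Control cells at 18 to 42.

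The XX cells of the same age were the closest comparison, and no gene's response was shown to differ between the sexes. The test of the difference called 0 of 13956 genes (0%) in edgeR. It gave 681 genes at an unadjusted p under 0.05, and DESeq2 called 200. Cldn6 was at 18.5 and 18.7 CPM in XX Control embryos, where XY Control cells had none, and at 172 and 52.1 CPM in XX ECKO embryos (adjusted p of the difference 0.502). Pou5f1 was at 243 and 330 CPM in XX Control and 73.1 and 28.7 CPM in XX ECKO, so the level was lower in ECKO embryos of both sexes. For the genes higher at E11.5 in XY bulk, thinned XX Control cells had medians of 25 and 29 and XX ECKO cells medians of 74 and 49. Xist, the RNA that coats the inactive X, had no count in 3 XY embryos and was at 0.699 CPM in ECKO b.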

How the data were processed

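Counts were deposited by the authors as whole numbers per gene symbol (24391 symbols), with 1 column per single cell or bulk library. The submitters' processing notes name the mm9 build, HISAT2 and edgeR. For versions, counter, gene models and strandedness nothing is stated in the sources used here, so reads of overlapping or antisense genes, and of near-identical copies, cannot be told apart. Column codes assigned cells to sex, genotype and embryo.

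All else was computed here. Counts of kept cells were summed per embryo and fitted in edgeR 4.0.16 (R 4.3.3) with TMM factors and the quasi-likelihood F test, over all 8 E12.5 embryos by sex and genotype. The common biological coefficient of variation was 0.918. CPM used TMM-scaled totals, but thinned sums were scaled by plain totals in the counts of genes without overlap. Each bulk table was fitted alone with filterByExpr. Bulk libraries with the same replicate number did not deviate together (correlations between -0.158 and 0.049), so no block was used. DESeq2 1.42.0 was an alternative. The scripts were tested on simulated data. Shares have exact Clopper-Pearson 95% intervals, and a share of 0 allows up to 3 cells of the total. Intervals and floors cover counting error only, since reads carry no molecular identifiers. Kept cells whose log2(CPM + 1) values correlated above 0.9 were counted as near-identical and left out in an alternative. No doublet caller was run on these sorted single cells. P-values measure the spread between embryos, or between bulk libraries whose separate origin the labels do not state.

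Members and gene lists (26 lists, 601 of 620 genes in the table) were chosen with earlier results of these data known. Named genes were Eed, 4 germ cell markers, a set of other germ cell genes, every called gene, the 12 higher and 12 lower genes of widest gap in share of cells (10 CPM or more in the higher group), up to 4 members of each list with the smallest unadjusted p, the bulk genes of largest fold change looked up at E12.5, and the 5 genes each way of smallest adjusted p for the difference between the sexes. Ezh2, Suz12, Krt18, Krt19, Ccnd1, Ccnd3 and some list members were named after their values were seen.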

Additional observations from a re-analysis of the deposited data

Results flagged for a closer look

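Named genes included those of smallest adjusted p for the difference between the sexes. Of these, 3 were flagged because all embryos of XY and XX differed between genotypes in opposite directions. The opposite order is thus how they were picked and is no result. The share of all genes with such an order is not given here. The edgeR test of the difference did not pass for any of the 3. Madcam1, a vascular adhesion molecule, was at 11.1 and 12.1 CPM in XY Control and 14.3 and 30 CPM in XY ECKO, but at 26.4 and 17.1 CPM in XX Control and 0 and 0.18 CPM in XX ECKO. A single cell held 99.9% of its counts in XY ECKO b, where it was at 0.0394 CPM without that cell, so the XY embryos then overlapped. The log2 fold change in XY minus that in XX was 8.92 (adjusted p 0.741). Mapk8ip2, a scaffold protein of JNK signalling, was at 0 and 1.98 CPM against 16.1 and 19 CPM in XY, and at 22.6 and 21.2 against 0 and 0.0601 CPM in XX. Its difference was 13.58 (adjusted p 0.741). Palm3, a paralemmin, was at 12 and 22.8 against 3.81 and 3.16 CPM in XY, and had no count in XX Control against 13.9 and 21 CPM in XX ECKO. In XY Control a, 99.4% of its counts were in 1 cell, without which it was at 0.0841 CPM and the XY embryos overlapped. Its difference was -13.94 (adjusted p 0.502). Fitted differences of genes with no count in a group depend on the prior count of the fit and are no bound.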

How the results depend on the processing

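The count of genes called between genotypes in XY cells, 1 in edgeR, was 395 in DESeq2, 150 without a filter on low counts, 0 with the 4 XY embryos alone, 0 with cells thinned to 50000 counts and 3 to 53 with 1 embryo left out, where the lone embryo of a group is assumed to vary like the others. It was 1 under RLE scaling, with stricter cells and without the near-identical cells. The count for the difference between the sexes, 0, was 200 in DESeq2, 84 without a filter and 0 to 37 with 1 embryo left out. The Eed log2 fold change stayed below 0 in every alternative, between -1.11 and -2.74 with 1 embryo left out. The number of genes without overlap between embryos, 3521, was 2190 at a mean of at least 20 CPM. No paired analysis was possible at E12.5 because the columns carry embryo codes and not the embryo numbers of the titles. The codes of 1 Control and 1 ECKO embryo of the XX cells share their first number, whose meaning is not given in the sources used here. With it as a block, added after the data were seen, 2 genes were called in XY and 0 for the difference. The XY codes share none. With the replicate number as a block, bulk calls were 151 at E11.5 and 68 at E13.5, against 266 and 604, and without a filter they were 457 and 1268. With 1 library left out they ran from 64 to 333 and from 94 to 2141. These bulk alternatives were added after the data were seen. The share of bulk-called genes on the same side at E12.5, 78.5%, was 92.0% for bulk genes at an adjusted p under 0.01 and 90.5% with the replicate block, and 63.8% to 86.4% with 1 embryo or library left out, lowest without E13.5 ECKO replicate 1. Of 320 alternatives for the fold changes of 20 named genes, 264 kept direction and side of the threshold, 54 passed it in addition and 2 lost it, both Cldn6. Leaving out Control b moved the median of all genes from 0.10 to 0.35 (log2). The 2 embryos in each group limit these tests, and a 0 in a single cell does not show absence.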
